A study of Mus musculus with 9 samples.

Results

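The 40 genes described here encode the enzymes, carriers and coat proteins with which a cell makes, activates, burns, stores and takes up fatty acids. They were picked by symbol from the 48709 genes of the deposited expression table, and the rule used no measured value. All 40 were in the table, and 39 reached a mean of at least 1 TPM in some group and were tested. TPM counts the transcripts of a gene per 1000000 transcripts of its library after correction for transcript length, so levels of different genes can be compared. By role, 11 genes belong to synthesis, desaturation and elongation, 6 to activation, 16 to import into mitochondria and oxidation, and 7 to storage, lipolysis, binding and uptake.

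RNA-seq was made from mouse CD8+ T cells, the lymphocytes that destroy infected or malignant cells, in 9 libraries. OVA/Citra cells (3 libraries) received OVA peptide, a fragment of chicken ovalbumin used as a model antigen, together with citraconate, a small dicarboxylate related to itaconate. OVA cells (3 libraries) received the peptide alone, and CTRL cells (3 libraries) received no peptide. The series asks how citraconate acts on transcription in CD8+ T cells, and its title concerns stemness and antitumour immunity. No group analysed here received citraconate without peptide, so its action without peptide was not measured. Neither dose, time, mouse strain nor age is stated in the labels, which name the cells "PAS-T cells", without defining it, in 8 libraries and OVA-stimulated T cells in OVA/Citra replicate 1.

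Fatty acids are built in the cytosol from malonyl-CoA by fatty acid synthase, then lengthened by elongases and given double bonds by desaturases in the endoplasmic reticulum. Synthetases attach coenzyme A, after which an acyl chain can enter membranes, be stored as triglyceride in lipid droplets, or pass into mitochondria on carnitine. There, dehydrogenases, hydratases and thiolases shorten it step by step, and electrons leave through the electron transfer flavoprotein to the respiratory chain. Dividing effector T cells are known to draw on synthesis for membranes, and memory T cells are known to draw on oxidation.

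Reads assigned to genes, worked back from the table, numbered 14754470 to 17384330 per library, and 11971 genes were tested. No label says that replicates were separate cultures or mice, so the p-values measure the spread between these libraries, which may be technical. OVA replicate 2 and OVA/Citra replicate 2 lay farther from their partners than other libraries did. The median of all tested genes was shifted by 0.12 on the log2(TPM + 1) scale in OVA/Citra against OVA, -0.078 in OVA against CTRL and 0.039 in OVA/Citra against CTRL. Differences of OVA/Citra from OVA are therefore given after subtracting that median of 0.12. Their standard error (SE) and adjusted p are those of the limma fit of the unshifted difference and do not test the shifted value beside them. Differences from CTRL are given unshifted, so their sizes are on another baseline than the shifted differences from OVA. Differences on this scale understate the change of genes with low TPM. In bulk RNA, fewer cells expressing a gene and less of its RNA per cell cannot be told apart.

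Markers of cell types were read beside these genes. The 5 CD8 T cell markers (Cd3d, Cd3e, Cd3g, Cd8a and Cd8b1) summed to 3238 to 3765 TPM with OVA/Citra, 1043 to 1806 TPM with OVA and 4182 to 4447 TPM in CTRL. The 3 natural killer cell markers (Ncr1, Klrb1c and Klra8), which activated CD8 T cells can also express, summed to 19.96 to 30.1 TPM with OVA/Citra, 74.9 to 113 TPM with OVA and 0.512 to 1.99 TPM in CTRL. B cell markers summed to at most 0.596 TPM with OVA/Citra, 1.38 TPM with OVA and 15.3 TPM in CTRL. Myeloid markers summed to 19.99 to 28.5 TPM with OVA/Citra, 25.7 to 30.5 TPM with OVA and 14.6 to 18.3 TPM in CTRL, and C1qa, C1qc and Marco were listed at 0 in every library. Of 7 stromal and epithelial markers, Epcam reached 13.7 to 17.1 TPM with OVA/Citra, 28.1 to 40.8 TPM with OVA and 1.44 to 2.62 TPM in CTRL, and Krt8 was listed at 0. CD4 and regulatory T cell markers summed to at most 1.23 TPM with OVA/Citra, 1.60 TPM with OVA and 3.19 TPM in CTRL, and erythroid and platelet markers to at most 1.05 TPM with OVA/Citra, 2.06 TPM with OVA and 3.48 TPM in CTRL. Adipocyte markers summed to at most 0.198 TPM in any library, with Adipoq, Lep and Cidec listed at 0. The part of these marker differences in the results below was not tested.

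Cells given peptide and citraconate had higher levels of the desaturase genes Scd1, Fads1 and Fads2, the elongase gene Elovl5, the synthetase gene Acss1, the dehydrogenase gene Acadvl and the triglyceride synthesis gene Dgat1 than cells given peptide alone. They had lower levels of Fasn, Elovl1, the electron carrier gene Etfb and the lipid droplet gene Plin2. Of 39 genes tested, 23 passed an adjusted p of 0.05 in OVA/Citra against OVA, 14 higher and 9 lower. That is 59.0% of the members, where 59.0% of all tested genes were called, 37.8% higher and 21.2% lower. In OVA against CTRL, 31 members were called (79.5%), 16 higher and 15 lower, against 71.9% of all genes, 32.1% higher and 39.8% lower. In OVA/Citra against CTRL, 24 members were called (61.5%), 15 higher and 9 lower, against 59.4% of all genes, 33.1% higher and 26.3% lower. In each comparison the share of members called lay near that of all genes, and nothing about the 40 genes as a group is read from it.

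The sizes of the differences lay near those of all genes. The median absolute log2 difference was 0.27 for the members and 0.32 for all tested genes in OVA/Citra against OVA, 0.42 and 0.48 in OVA against CTRL, and 0.32 and 0.34 in OVA/Citra against CTRL. The signed medians were 0.069 for members and 0.12 for all genes, -0.028 and -0.078, and 0.11 and 0.039 in the same order of comparisons. With libraries rescaled by the median-of-ratios method, which centres each on a common reference, the OVA/Citra against OVA split over all genes was 3482 higher and 3589 lower (49.2% higher), against 4522 and 2543 (64.0% higher) without scaling. Under that scaling the members split 13 higher and 13 lower (50.0% higher), against 14 and 9 (60.9% higher). For OVA/Citra against CTRL the members split 12 and 12 (50.0% higher) with scaling and 15 and 9 (62.5% higher) without, and for OVA against CTRL 17 and 15 against 16 and 15.

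**Figure D1:**
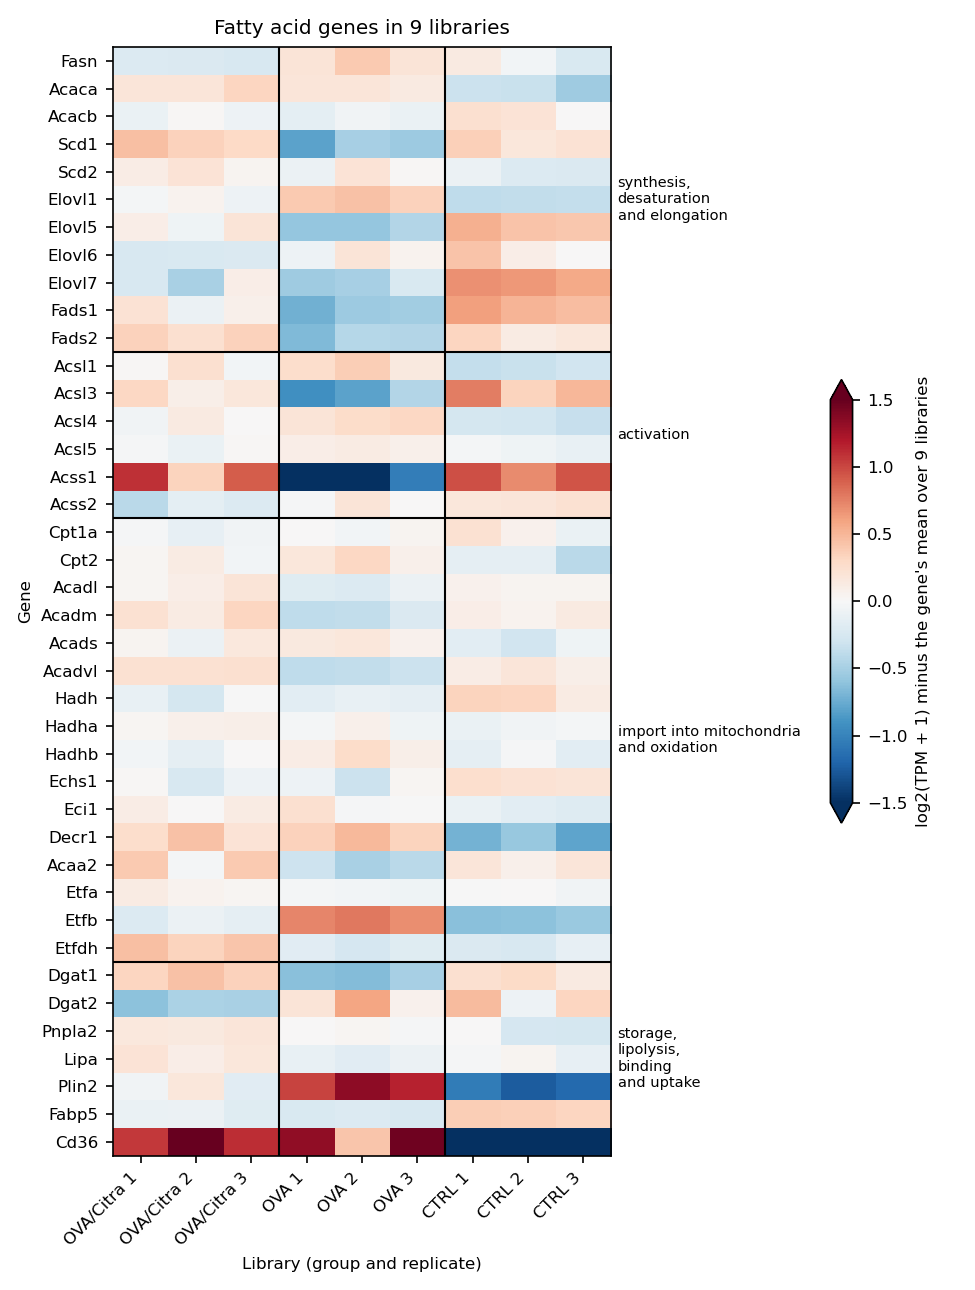
Levels of the 40 fatty acid genes in each library (columns, OVA/Citra, OVA and CTRL replicates 1 to 3), as log2(TPM + 1) minus the gene's mean over 9 libraries, with the colour scale ending at 1.5 in both directions. Scd1, Fads2, Acss1 and Dgat1 are blue only in the OVA columns, Plin2 and Etfb are most red there, and Cd36 is blue in the 3 CTRL columns.

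The desaturases put double bonds into acyl chains, and Scd1, Fads1 and Fads2 were low with peptide alone, unlike Scd2 and, outside the 40 genes, Fads3. Scd1, the stearoyl-CoA desaturase that makes oleate, was at 127, 118 and 115 TPM in OVA/Citra libraries, 52.8, 65.7 and 63.3 TPM in OVA libraries and 119, 105 and 108 TPM in CTRL libraries. The OVA libraries were lowest and overlapped neither other group, while OVA/Citra and CTRL libraries overlapped. Its difference in OVA/Citra against OVA was 0.85 relative to the median and 0.98 unshifted (SE 0.0850, adjusted p 1.71e-05). Unshifted, it was -0.86 in OVA against CTRL (SE 0.0850, adjusted p 8.16e-06), with an adjusted p of 0.264 in OVA/Citra against CTRL.

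Fads2, the delta-6 desaturase that starts the conversion of dietary linoleate into long polyunsaturated fatty acids, was at 163, 152 and 163 TPM in OVA/Citra libraries, 80.6, 95.2 and 94.1 TPM in OVA libraries and 160.2, 140.4 and 144 TPM in CTRL libraries. OVA libraries were again lowest without overlap, while OVA/Citra and CTRL values overlapped. The difference was 0.70 in OVA/Citra against OVA (0.82 unshifted, SE 0.0748, adjusted p 2.12e-05) and -0.72 in OVA against CTRL (SE 0.0748, adjusted p 1.21e-05). Fads1, the delta-5 desaturase that acts later in the same pathway and whose gene lies next to Fads2, was at 41.1, 33.0 and 37.2 TPM in OVA/Citra libraries, 21.0, 23.8 and 24.3 TPM in OVA libraries and 54.5, 50.6 and 49.2 TPM in CTRL libraries. Here the 3 groups were all separate, with OVA/Citra between the others. Fads1 rose by 0.54 in OVA/Citra against OVA (SE 0.0882, adjusted p 1.53e-04), fell with OVA against CTRL (-1.13, SE 0.0882, adjusted p 1.65e-06) and was lower with OVA/Citra than in CTRL (-0.46, adjusted p 0.00122).

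Scd2, a second stearoyl-CoA desaturase, was the most abundant member at 607 ± 36.1 TPM with OVA/Citra, 579 ± 59.2 TPM with OVA and 497 ± 25.8 TPM in CTRL (SD, n = 3 each), and did not follow Scd1. It gave -0.053 in OVA/Citra against OVA (adjusted p 0.444) and rose by 0.22 in OVA against CTRL (adjusted p 0.0271). The second call was lost without OVA replicate 2 (0.14, adjusted p 0.0915), CTRL replicate 2 (0.20, adjusted p 0.0797) or CTRL replicate 3 (0.19, adjusted p 0.0896). The Scd2 to Scd1 ratio within a library was 5.07 ± 0.376 with OVA/Citra, 9.57 ± 0.539 with OVA and 4.50 ± 0.116 in CTRL, and the OVA ratios overlapped neither other group. Fads3, named after its values were seen, averaged 6.09 TPM with OVA/Citra, 4.28 TPM with OVA and 0.548 TPM in CTRL and rose with OVA against CTRL (1.78, adjusted p 3.84e-06) and in OVA/Citra against CTRL (2.20, adjusted p 1.85e-06). In OVA/Citra against OVA it gave 0.30 (adjusted p 0.0403), a call lost with median-of-ratios scaling (adjusted p 0.11), a pseudocount of 0.1 TPM (adjusted p 0.185) and other alternatives, and without OVA/Citra replicate 1 or 2 or OVA replicate 1 or 2 (adjusted p 0.0681 to 0.132). Scd1 and Scd2 are similar copies, and how the authors' counting divided reads between them is not known.

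Elongases add carbon units to an acyl chain, and Elovl1 and Elovl5 moved in opposite directions. Elovl5, which lengthens polyunsaturated chains made by the Fads enzymes, was at 107, 95.3 and 114 TPM in OVA/Citra libraries, 66.3, 66.1 and 73.3 TPM in OVA libraries and 145, 135 and 132 TPM in CTRL libraries. Every OVA/Citra library lay above every OVA library and below every CTRL library. Elovl5 rose by 0.49 in OVA/Citra against OVA (SE 0.0733, adjusted p 8.47e-05), fell with OVA against CTRL (-0.99, SE 0.0733, adjusted p 1.14e-06), and stayed lower with OVA/Citra than in CTRL (-0.38, adjusted p 0.00136).

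Elovl1, which makes very long saturated and monounsaturated chains for sphingolipids, was at 87.4, 92.6 and 84.6 TPM in OVA/Citra libraries, 118, 121 and 114 TPM in OVA libraries and 68.3, 69.2 and 69.4 TPM in CTRL libraries. The groups were separate here too, with OVA highest and CTRL lowest. The difference was -0.54 in OVA/Citra against OVA (SE 0.0496, adjusted p 8.50e-05) and 0.76 in OVA against CTRL (SE 0.0496, adjusted p 4.92e-07). The Elovl1 to Elovl5 ratio within a library was 0.844 ± 0.116 with OVA/Citra, 1.72 ± 0.148 with OVA and 0.504 ± 0.0290 in CTRL, and no OVA library overlapped another group.

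Elovl6, which lengthens palmitate to stearate, was at 13.1 ± 0.117 TPM with OVA/Citra, 16.2 ± 1.60 TPM with OVA and 17.8 ± 3.0 TPM in CTRL (SD, n = 3 each) and missed the threshold in OVA/Citra against OVA (-0.41, unshifted -0.28, adjusted p 0.0504). It was called lower there under 10 of 19 alternatives, among them median-of-ratios scaling (adjusted p 0.00732) and quantile normalization (adjusted p 0.00519). Leaving out certain single libraries also gave that call (without OVA replicate 1 adjusted p 0.0393, CTRL replicate 1 0.0172, CTRL replicate 3 0.042). Elovl6 was lower with OVA/Citra than in CTRL (-0.41, adjusted p 0.00959). Elovl7 was nearly silent, with 11, 4 and 24 reads with OVA/Citra, 3, 4 and 13 reads with OVA and 48, 49 and 50 reads in CTRL. CTRL was highest without overlap, and Elovl7 fell in both peptide groups (OVA -1.05, adjusted p 2.94e-04, OVA/Citra -0.84, adjusted p 0.00191). With a pseudocount of 0.1 TPM these differences were -2.56 and -1.86.

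Promoter sequences of Elovl5 and Fads2 are shown because both genes were low with OVA and higher with OVA/Citra. They come from RefSeq on GRCm38.p6, an older mouse build than the one in the submitters' notes, run 5′ to 3′ along the gene's strand from 250 bases before the start site to 50 after it, and capitals mark motif matches. The motifs searched, on both strands, were the sterol response element (TCACNCCAC), an E-box (CACGTG) and the CCAAT box, spelled as its name. The Elovl5 window (chr9:77917115-77917414, plus strand) held 1 E-box and 2 CCAAT boxes, and the Fads2 window (chr19:10101454-10101753, minus strand) held no match.
Elovl5: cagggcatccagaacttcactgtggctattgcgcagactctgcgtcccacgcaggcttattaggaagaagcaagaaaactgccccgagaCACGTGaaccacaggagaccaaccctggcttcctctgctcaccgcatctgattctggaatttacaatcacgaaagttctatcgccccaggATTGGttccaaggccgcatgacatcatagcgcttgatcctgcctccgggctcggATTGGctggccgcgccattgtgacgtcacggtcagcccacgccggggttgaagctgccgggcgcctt
Fads2: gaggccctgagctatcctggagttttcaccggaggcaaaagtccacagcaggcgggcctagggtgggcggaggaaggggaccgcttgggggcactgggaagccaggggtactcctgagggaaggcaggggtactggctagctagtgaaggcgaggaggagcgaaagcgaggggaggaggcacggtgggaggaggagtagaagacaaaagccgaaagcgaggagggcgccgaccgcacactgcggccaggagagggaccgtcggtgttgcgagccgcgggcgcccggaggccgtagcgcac
A match is a description of the letters and not evidence of binding.

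Fasn and Acaca carry out the committed steps of synthesis, and they parted with citraconate. Fasn, fatty acid synthase, was at 89.6 ± 1.32 TPM with OVA/Citra, 126 ± 10.6 TPM with OVA and 102 ± 12.9 TPM in CTRL (SD, n = 3 each). OVA/Citra libraries lay below every OVA library. It fell relative to the median by 0.61 in OVA/Citra against OVA (SE 0.0887, adjusted p 0.00107) and rose by 0.30 with OVA against CTRL (SE 0.0887, adjusted p 0.0107). OVA/Citra against CTRL gave -0.18 (adjusted p 0.109), called lower without CTRL replicate 3 (-0.27, adjusted p 0.0188). Median-of-ratios scaling (-0.22, adjusted p 0.047) and quantile normalization (-0.23, adjusted p 0.0333) also gave the lower call.

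Acaca, the acetyl-CoA carboxylase that supplies malonyl-CoA to Fasn, was at 29.3 ± 1.77 TPM with OVA/Citra, 28.0 ± 0.573 TPM with OVA and 18.7 ± 1.60 TPM in CTRL (SD, n = 3 each). It was higher in both peptide groups than in CTRL (OVA 0.56, adjusted p 7.35e-05, OVA/Citra 0.63, adjusted p 6.15e-05) and gave -0.059 between them (adjusted p 0.482). The Acaca to Fasn ratio was 0.327 ± 0.0247 with OVA/Citra, 0.223 ± 0.0157 with OVA and 0.183 ± 0.0106 in CTRL, with no overlap between groups. Acacb, the carboxylase at the mitochondrial surface whose malonyl-CoA restrains fatty acid import, had 10, 16 and 12 reads with OVA/Citra, 9, 13 and 12 reads with OVA and 27, 27 and 18 reads in CTRL and was not tested.

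**Figure D2:**
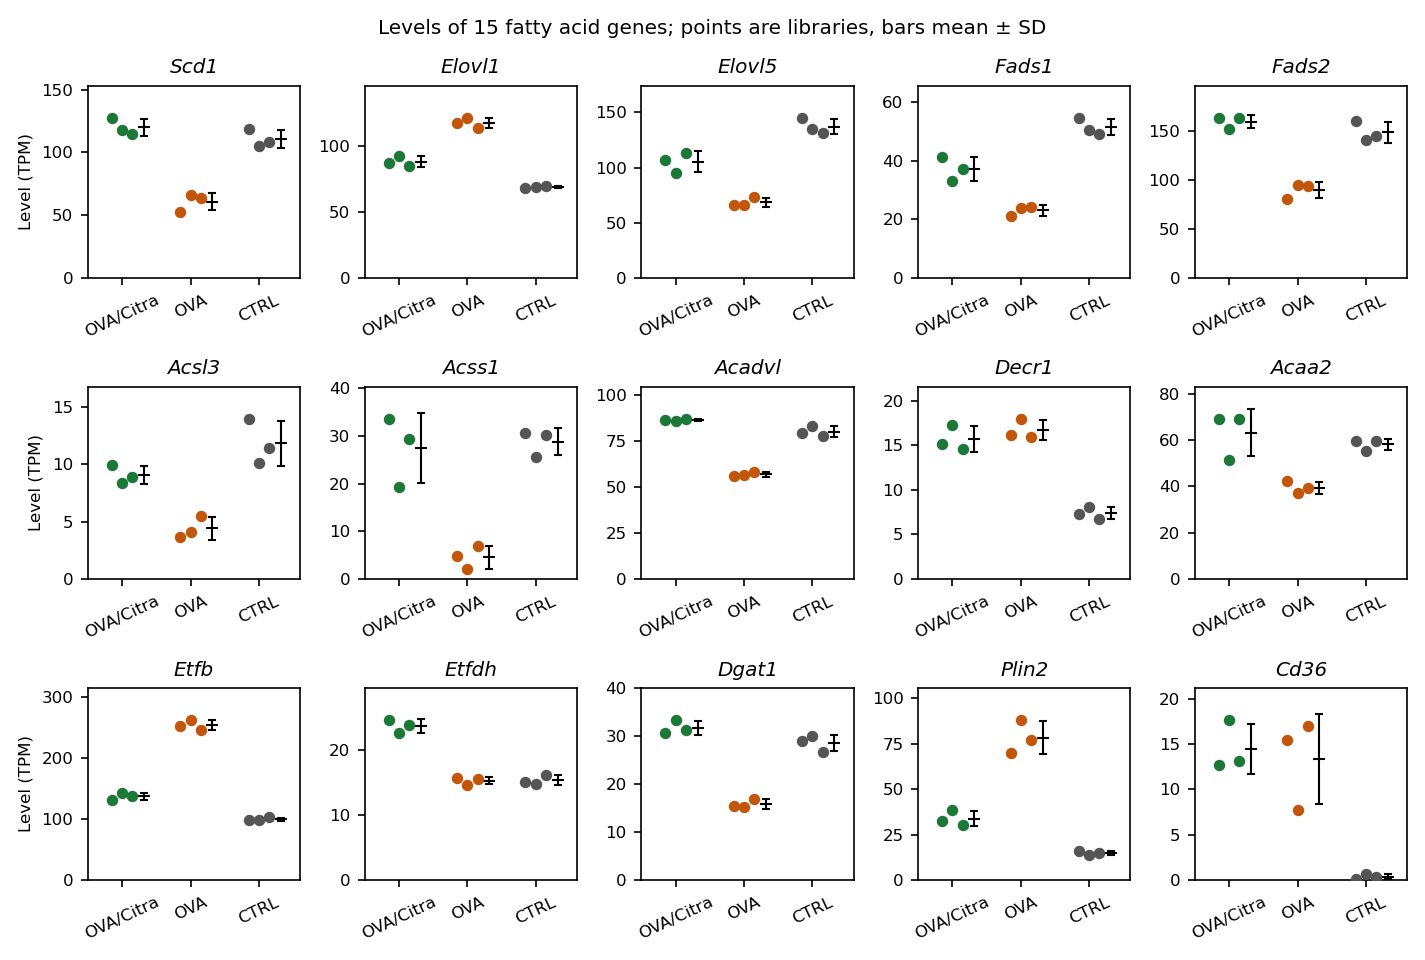
Levels in TPM (vertical axes, from 0) of the 15 fatty acid genes given by library, in OVA/Citra, OVA and CTRL, where points are libraries and bars the mean and SD of 3. OVA points are lowest for Scd1, Elovl5, Fads1, Fads2, Acsl3, Acss1, Acadvl, Acaa2 and Dgat1 and highest for Elovl1, Etfb and Plin2, and Etfdh is highest in OVA/Citra.

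Activation attaches coenzyme A, and the largest difference among the members between OVA/Citra and OVA was in this group. Acss1, the mitochondrial synthetase that turns acetate into acetyl-CoA, was at 33.5, 19.4 and 29.4 TPM in OVA/Citra libraries, 4.71, 2.08 and 6.90 TPM in OVA libraries and 30.6, 25.5 and 30.1 TPM in CTRL libraries. OVA libraries were far below both other groups, while OVA/Citra and CTRL overlapped, and replicate 2 was lowest in every group. The mean with OVA/Citra was 6.01 times that with OVA, and the log2 differences were 2.30 in OVA/Citra against OVA (SE 0.302, adjusted p 1.03e-04) and -2.52 in OVA against CTRL (SE 0.302, adjusted p 3.27e-05). Acss2, the cytosolic and nuclear acetate enzyme, was at 6.09 ± 0.640 TPM with OVA/Citra, 7.84 ± 0.743 TPM with OVA and 8.65 ± 0.216 TPM in CTRL (SD, n = 3 each), lowest with OVA/Citra. Acss2 with OVA/Citra gave -0.44 against OVA (unshifted -0.32, adjusted p 0.0187) and -0.45 unshifted against CTRL (adjusted p 0.00307). The first call was lost without OVA/Citra replicate 1 (adjusted p 0.0748) or OVA replicate 2 (adjusted p 0.0708).

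The long-chain acyl-CoA synthetases also split by member. Acsl3, found at the endoplasmic reticulum and on lipid droplets, was at 9.90, 8.32 and 8.87 TPM in OVA/Citra libraries, 3.66, 4.05 and 5.51 TPM in OVA libraries and 13.9, 10.1 and 11.4 TPM in CTRL libraries. OVA values lay below all others, and it rose by 0.78 in OVA/Citra against OVA (SE 0.148, adjusted p 5.08e-04) and fell with OVA against CTRL (-1.25, SE 0.148, adjusted p 2.93e-05). OVA/Citra against CTRL gave -0.35 (adjusted p 0.067), called without OVA replicate 3 (adjusted p 0.0335) or CTRL replicate 2 (adjusted p 0.0436). It was also called lower with median-of-ratios scaling (-0.38, adjusted p 0.0327) and quantile normalization (adjusted p 0.0228). Fitting only these 2 groups (adjusted p 0.033) or the recovered reads (adjusted p 0.0425) gave that call too.

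Acsl4, which prefers arachidonate and other polyunsaturated chains, ran the other way at 73.1 ± 5.02 TPM with OVA/Citra, 85.7 ± 3.80 TPM with OVA and 58.0 ± 1.86 TPM in CTRL (SD, n = 3 each). It fell in OVA/Citra against OVA (-0.35, adjusted p 0.00932) and rose with OVA against CTRL (0.56, adjusted p 1.84e-05). The Acsl4 to Acsl3 ratio was 8.17 ± 1.25 with OVA/Citra, 19.9 ± 3.32 with OVA and 4.99 ± 0.794 in CTRL, with the OVA libraries above all others. Acsl5, the most abundant synthetase, was at 227 ± 10.0 TPM with OVA/Citra, 249 ± 4.48 TPM with OVA and 221 ± 6.49 TPM in CTRL and rose with OVA against CTRL (0.17, adjusted p 0.00866). Its lower call in OVA/Citra against OVA (-0.26, adjusted p 0.0321) was lost without OVA/Citra replicate 1 or 2, OVA replicate 1 or 2, or CTRL replicate 2 (adjusted p 0.057, 0.0937, 0.0698, 0.0859 and 0.0504). Acsl1, linked to uptake and oxidation in muscle and fat, was at 3.31 ± 0.456 TPM with OVA/Citra, 3.92 ± 0.381 TPM with OVA and 2.26 ± 0.0802 TPM in CTRL and was higher in both peptide groups than in CTRL (OVA 0.59, adjusted p 9.49e-04, OVA/Citra 0.40, adjusted p 0.0128).

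Entry into mitochondria passes through the carnitine palmitoyltransferases. Cpt1a, the outer-membrane enzyme held to control the rate of oxidation, was at 38.7 ± 1.55 TPM with OVA/Citra, 40.5 ± 1.17 TPM with OVA and 42.6 ± 4.93 TPM in CTRL (SD, n = 3 each). No comparison of Cpt1a passed the test (adjusted p 0.496 in OVA/Citra against OVA, 0.475 in OVA against CTRL and 0.18 in OVA/Citra against CTRL). Without CTRL replicate 3 the last was called lower (-0.21, adjusted p 0.0287). Median-of-ratios scaling (-0.17, adjusted p 0.0449) and quantile normalization (-0.19, adjusted p 0.0387) also gave that call. OVA/Citra against OVA gave -0.19 relative to the median (95% interval -0.37 to -0.012) and -0.066 unshifted (95% interval -0.24 to 0.11). With median-of-ratios scaling Cpt1a was called lower in that comparison (-0.20, adjusted p 0.0272). Cpt2, its inner-membrane partner, was at 17.1 ± 1.04 TPM with OVA/Citra, 19.1 ± 1.70 TPM with OVA and 14.1 ± 1.59 TPM in CTRL and was higher with OVA than in CTRL (0.41, adjusted p 0.00333). Its higher call in OVA/Citra against CTRL (0.26, adjusted p 0.0401) was lost without OVA/Citra replicate 1 (adjusted p 0.0822), OVA/Citra replicate 2 (adjusted p 0.12), OVA replicate 1 (adjusted p 0.0565) or CTRL replicate 3 (adjusted p 0.144).

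Acyl-CoA dehydrogenases take the first oxidation step for chains of different length, and 3 of 4 rose with citraconate relative to peptide alone. Acadvl, for very long chains, was at 86.5, 86.0 and 87.2 TPM in OVA/Citra libraries, 55.9, 56.5 and 58.5 TPM in OVA libraries and 79.5, 83.4 and 77.8 TPM in CTRL libraries. The OVA libraries were lowest without overlap and the spread within each group was small. Acadvl rose by 0.47 in OVA/Citra against OVA (0.59 unshifted, SE 0.0470, adjusted p 1.03e-05) and fell with OVA against CTRL (-0.49, SE 0.0470, adjusted p 7.08e-06). Acadm, for medium chains, was at 28.9 ± 2.07 TPM with OVA/Citra, 19.5 ± 1.31 TPM with OVA and 26.3 ± 0.722 TPM in CTRL (SD, n = 3 each). In those 2 comparisons it gave 0.42 (0.55 unshifted, adjusted p 1.56e-04) and -0.42 (unshifted, adjusted p 4.88e-04). Acadl, for long chains and the most abundant of the 4, was at 239 ± 13.3 TPM with OVA/Citra, 199 ± 8.46 TPM with OVA and 230.2 ± 2.32 TPM in CTRL and moved less, by 0.14 (0.27 unshifted, adjusted p 0.00153) and -0.21 (adjusted p 0.00414). With median-of-ratios scaling Acadl rose by 0.13 in OVA/Citra against OVA (adjusted p 0.0376). The lower Acadl call with OVA was lost when granzyme genes, abundant products of killer T cells, were left out of each library's total (-0.098, adjusted p 0.0991).

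Acads, for short chains, did not share that pattern. It was at 58.5 ± 5.23 TPM with OVA/Citra, 62.2 ± 2.40 TPM with OVA and 50.6 ± 3.86 TPM in CTRL (SD, n = 3 each), gave -0.21 in OVA/Citra against OVA (unshifted -0.090, adjusted p 0.339) and rose with OVA against CTRL (0.30, adjusted p 0.0059). With median-of-ratios scaling Acads was called lower in OVA/Citra against OVA (-0.22, adjusted p 0.0395). Its higher call in OVA/Citra against CTRL (0.21, adjusted p 0.0416) was lost without OVA/Citra replicate 1 (adjusted p 0.0912) or 3 (adjusted p 0.156), OVA replicate 1 (adjusted p 0.0582), or CTRL replicate 1 (adjusted p 0.0797) or 2 (adjusted p 0.156).

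The later steps of the spiral were mixed. Acaa2, the mitochondrial thiolase that releases acetyl-CoA, was at 69.0, 51.4 and 69.1 TPM in OVA/Citra libraries, 42.2, 37.0 and 39.3 TPM in OVA libraries and 59.4, 55.3 and 59.6 TPM in CTRL libraries. OVA was lowest without overlap, and OVA/Citra replicate 2 lay below its partners and below CTRL. Acaa2 rose by 0.53 in OVA/Citra against OVA (0.65 unshifted, SE 0.107, adjusted p 5.05e-04) and fell with OVA against CTRL (-0.55, SE 0.107, adjusted p 9.64e-04). OVA/Citra against CTRL gave 0.11 (adjusted p 0.413), and 0.25 (adjusted p 0.0141) without OVA/Citra replicate 2.

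Decr1, the reductase needed to oxidise unsaturated chains, was at 15.2, 17.3 and 14.6 TPM in OVA/Citra libraries, 16.1, 17.9 and 15.9 TPM in OVA libraries and 7.26, 8.12 and 6.77 TPM in CTRL libraries. Both peptide groups lay above CTRL and overlapped each other. Decr1 rose by 1.08 with OVA against CTRL (SE 0.0946, adjusted p 3.63e-06) and by 0.99 with OVA/Citra against CTRL (adjusted p 1.26e-05), with -0.21 between the peptide groups (adjusted p 0.46). Hadh, the short-chain hydroxyacyl-CoA dehydrogenase, was at 26.5 ± 2.39 TPM with OVA/Citra, 26.2 ± 0.410 TPM with OVA and 34.9 ± 2.79 TPM in CTRL (SD, n = 3 each), lower in both peptide groups (OVA -0.39, adjusted p 0.0013, OVA/Citra -0.38, adjusted p 0.00219).

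Echs1, the short-chain enoyl-CoA hydratase, was at 14.9 ± 1.43 TPM with OVA/Citra, 14.7 ± 1.91 TPM with OVA and 18.8 ± 0.410 TPM in CTRL (SD, n = 3 each) and also fell with OVA (-0.34, adjusted p 0.0113). Its lower call with OVA/Citra against CTRL (-0.32, adjusted p 0.021) was lost without OVA/Citra replicate 2 (adjusted p 0.077), CTRL replicate 1 (adjusted p 0.0599) or CTRL replicate 2 (adjusted p 0.0528). Eci1, the isomerase that repositions double bonds, was at 64.6 ± 2.89 TPM with OVA/Citra, 64.4 ± 6.84 TPM with OVA and 54.9 ± 1.71 TPM in CTRL and was higher in both peptide groups than in CTRL (OVA 0.22, adjusted p 0.0208, OVA/Citra 0.23, adjusted p 0.0214). Neither Eci1 call held: the OVA call was lost without OVA replicate 1 (0.14, adjusted p 0.0757), CTRL replicate 2 (adjusted p 0.0529) or CTRL replicate 3 (adjusted p 0.0654), and the OVA/Citra call without OVA/Citra replicate 1 (adjusted p 0.0614) or 3 (adjusted p 0.0709), or CTRL replicate 2 (adjusted p 0.0556) or 3 (adjusted p 0.0685).

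Hadha and Hadhb encode the 2 subunits of the mitochondrial trifunctional protein, which performs the last 3 steps for long chains, and they are divergent neighbours. Hadha was at 81.2 ± 1.61 TPM with OVA/Citra, 77.4 ± 3.88 TPM with OVA and 74.2 ± 1.72 TPM in CTRL (SD, n = 3 each), with adjusted p 0.266 in OVA/Citra against OVA, 0.309 in OVA against CTRL and 0.05 in OVA/Citra against CTRL. The last was called higher, at 0.13, without OVA replicate 2 (adjusted p 0.0339) or OVA replicate 3 (adjusted p 0.0482). Changing the pseudocount, the filter, the groups fitted or the granzyme total, or fitting the recovered reads, also gave that call (adjusted p 0.0198 to 0.0487). With median-of-ratios scaling it was not called (0.085, adjusted p 0.253). Hadhb was at 22.8 ± 1.12 TPM with OVA/Citra, 26.6 ± 2.07 TPM with OVA and 22.1 ± 1.25 TPM in CTRL and rose with OVA against CTRL (0.26, adjusted p 0.0111). Its lower call in OVA/Citra against OVA (-0.33, adjusted p 0.0351) was lost without OVA/Citra replicate 1 (adjusted p 0.0681), OVA/Citra replicate 2 (adjusted p 0.105) or OVA replicate 2 (adjusted p 0.126). The Hadha to Hadhb ratio was 3.56 ± 0.191 with OVA/Citra, 2.91 ± 0.0801 with OVA and 3.37 ± 0.198 in CTRL, lowest in the OVA libraries without overlap. The promoter window of Hadhb (chr5:30155003-30155302, plus strand) is shown because the start sites lie 273 bases apart on opposite strands and the 2 genes' windows share 228 bases, and it held no match to the 3 motifs.
Hadhb: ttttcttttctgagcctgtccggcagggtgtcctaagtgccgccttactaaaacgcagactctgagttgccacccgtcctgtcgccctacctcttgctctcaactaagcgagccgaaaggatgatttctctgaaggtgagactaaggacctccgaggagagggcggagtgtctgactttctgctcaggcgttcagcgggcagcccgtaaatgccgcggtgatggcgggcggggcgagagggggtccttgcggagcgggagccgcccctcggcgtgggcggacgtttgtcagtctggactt

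Electrons from every acyl-CoA dehydrogenase pass through the electron transfer flavoprotein, a heterodimer of the Etfa and Etfb products, to the Etfdh product, which reduces ubiquinone. The 3 genes gave 3 different patterns. Etfb was at 131, 142 and 137 TPM in OVA/Citra libraries, 251, 262 and 246 TPM in OVA libraries and 97.7, 98.4 and 102 TPM in CTRL libraries. All 3 groups were separate, with OVA highest and CTRL lowest. Etfb fell by 1.01 relative to the median in OVA/Citra against OVA (SE 0.0482, adjusted p 4.12e-06), and its mean with OVA was 2.54 times that in CTRL (1.34, SE 0.0482, adjusted p 1.48e-08).

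Etfa, the partner subunit, differed little between groups, at 103 ± 3.24 TPM with OVA/Citra, 94.9 ± 1.36 TPM with OVA and 96.8 ± 2.24 TPM in CTRL (SD, n = 3 each). Its unshifted difference in OVA/Citra against OVA was 0.11 (adjusted p 0.0496), which is -0.0089 relative to the median and -0.019 (adjusted p 0.745) under median-of-ratios scaling. That call was lost whichever of the 9 libraries was left out (adjusted p 0.0531 to 0.163), so no direction is given for Etfa. The Etfb to Etfa ratio within a library was 1.33 ± 0.0876 with OVA/Citra, 2.66 ± 0.0722 with OVA and 1.03 ± 0.0502 in CTRL, with no overlap between any groups.

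Etfdh was at 24.7, 22.7 and 24.0 TPM in OVA/Citra libraries, 15.7, 14.7 and 15.5 TPM in OVA libraries and 15.1, 14.8 and 16.2 TPM in CTRL libraries. OVA/Citra was highest without overlap, and OVA and CTRL overlapped. Etfdh rose by 0.48 relative to the median in OVA/Citra against OVA (0.60 unshifted, SE 0.0681, adjusted p 6.00e-05). Unshifted, it rose by 0.60 in OVA/Citra against CTRL (adjusted p 4.29e-05), while OVA against CTRL gave -0.0074 (adjusted p 0.927). The promoter windows of the subunit genes Etfa (chr9:55512194-55512493, minus strand) and Etfb (chr7:43443822-43444121, plus strand) are shown because their levels parted, and each held 2 CCAAT boxes and neither other motif.
Etfa: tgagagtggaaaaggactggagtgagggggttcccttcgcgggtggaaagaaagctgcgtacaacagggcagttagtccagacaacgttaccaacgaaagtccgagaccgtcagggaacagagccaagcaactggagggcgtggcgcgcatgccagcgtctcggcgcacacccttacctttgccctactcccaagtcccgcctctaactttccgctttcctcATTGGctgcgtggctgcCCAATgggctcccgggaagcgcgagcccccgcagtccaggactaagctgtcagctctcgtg
Etfb: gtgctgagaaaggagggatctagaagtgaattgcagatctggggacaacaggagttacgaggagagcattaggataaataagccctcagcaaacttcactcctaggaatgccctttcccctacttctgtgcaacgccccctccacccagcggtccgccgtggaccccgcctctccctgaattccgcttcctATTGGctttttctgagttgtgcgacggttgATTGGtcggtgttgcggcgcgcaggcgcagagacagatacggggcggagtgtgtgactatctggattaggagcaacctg

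Among storage genes, Plin2 and Dgat2 fell with citraconate, and which of them fell further depended on the pseudocount. Plin2 encodes perilipin 2, which covers lipid droplets and is used as a marker of them. It was at 32.6, 38.3 and 30.2 TPM in OVA/Citra libraries, 69.9, 88.0 and 76.8 TPM in OVA libraries and 15.9, 13.8 and 14.6 TPM in CTRL libraries. The groups were all separate, OVA highest and CTRL lowest. Plin2 fell by 1.32 relative to the median in OVA/Citra against OVA (SE 0.105, adjusted p 1.85e-05). Its mean with OVA was 5.30 times that in CTRL (2.33, SE 0.105, adjusted p 5.14e-08), and with OVA/Citra it stayed above CTRL (1.13, adjusted p 1.04e-05). Its promoter window (chr4:86670010-86670309, minus strand) is shown because it and Elovl5 were the members with an E-box, and it also held 1 CCAAT box.
Plin2: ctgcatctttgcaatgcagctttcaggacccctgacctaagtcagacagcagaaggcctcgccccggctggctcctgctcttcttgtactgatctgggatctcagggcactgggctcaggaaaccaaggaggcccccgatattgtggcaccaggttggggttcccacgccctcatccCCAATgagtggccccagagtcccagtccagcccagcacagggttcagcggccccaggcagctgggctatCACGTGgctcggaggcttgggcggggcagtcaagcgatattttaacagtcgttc

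The 2 acyltransferases that finish triglyceride synthesis parted. Dgat1 was at 30.6, 33.4 and 31.2 TPM in OVA/Citra libraries, 15.3, 15.2 and 17.0 TPM in OVA libraries and 28.9, 30.0 and 26.7 TPM in CTRL libraries. OVA was lowest without overlap, and OVA/Citra overlapped no OVA library and lay above every CTRL library. The difference was 0.84 in OVA/Citra against OVA (0.96 unshifted, SE 0.0718, adjusted p 8.62e-06), -0.81 in OVA against CTRL (SE 0.0718, adjusted p 3.85e-06) and 0.15 in OVA/Citra against CTRL (adjusted p 0.0964). Dgat2 was scarce, with 11, 14 and 15 reads with OVA/Citra, 36, 53 and 33 reads with OVA and 43, 25 and 44 reads in CTRL. OVA/Citra was lowest without overlap. Dgat2 fell against OVA (-0.93, unshifted -0.80, adjusted p 0.0036) and against CTRL (unshifted -0.77, adjusted p 0.00456). With a pseudocount of 0.1 TPM the unshifted differences were -1.36 and -1.30, where Plin2 gave -1.21 against OVA.

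Breakdown genes differed less between groups. Pnpla2, the lipase that starts droplet triglyceride breakdown, was at 86.5 ± 1.29 TPM with OVA/Citra, 77.6 ± 1.14 TPM with OVA and 68.7 ± 7.40 TPM in CTRL (SD, n = 3 each) and was higher with OVA/Citra than in CTRL (0.33, adjusted p 0.00202). OVA/Citra against OVA gave 0.031 (adjusted p 0.0771), and with median-of-ratios scaling 0.021 (adjusted p 0.798). Without CTRL replicate 1 the unshifted difference, 0.15, was called higher (adjusted p 0.0151), beside the shift of 0.12 of all genes. Its higher call with OVA against CTRL (0.18, adjusted p 0.0379) was lost without any one of the libraries except OVA/Citra replicate 2 and CTRL replicate 1, with adjusted p 0.0513 to 0.137. The Plin2 to Pnpla2 ratio was 0.390 ± 0.0538 with OVA/Citra, 1.01 ± 0.109 with OVA and 0.215 ± 0.0112 in CTRL, with no overlap between groups. Lipa, the lysosomal acid lipase, was at 32.0 ± 1.15 TPM with OVA/Citra, 26.2 ± 0.726 TPM with OVA and 27.9 ± 1.67 TPM in CTRL and rose in OVA/Citra against OVA (0.16, unshifted 0.28, adjusted p 0.00362). With median-of-ratios scaling Lipa rose there by 0.15 (adjusted p 0.0399). Its higher call against CTRL (0.19, adjusted p 0.0251) was lost without OVA/Citra replicate 1 (adjusted p 0.0817), OVA/Citra replicate 3 (adjusted p 0.0666) or CTRL replicate 3 (adjusted p 0.087).

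Cd36, the scavenger receptor that takes up fatty acids and oxidised lipoproteins, was nearly absent without peptide. It was at 12.7, 17.7 and 13.1 TPM in OVA/Citra libraries, 15.5, 7.70 and 17.0 TPM in OVA libraries and 0.0963, 0.636 and 0.322 TPM in CTRL libraries, which are 273, 376 and 305 reads in OVA/Citra, 363, 177 and 421 reads in OVA and 2, 14 and 8 reads in CTRL. The peptide groups overlapped each other and stood far above CTRL. The mean with OVA was 38.1 times that in CTRL (3.36, SE 0.263, adjusted p 1.64e-06), and OVA/Citra against CTRL gave 3.52 (adjusted p 2.38e-06). With 2 to 14 reads per CTRL library these sizes are loose: without CTRL replicate 2 the mean with OVA was 64.0 times that in CTRL, and with a pseudocount of 0.1 TPM the log2 differences were 5.02 and 5.20. OVA/Citra against OVA gave 0.038 (adjusted p 0.616), with an unshifted 95% interval from -0.43 to 0.75. Cd36 is also carried by myeloid and endothelial cells and platelets. Of 12 myeloid markers, Cd14 was at 3.18 to 4.18 TPM with OVA/Citra, 5.88 to 9.73 TPM with OVA and at most 0.623 TPM in CTRL. Cd68 was at 10.7 to 17.7 TPM with OVA/Citra, 12.1 to 14.0 TPM with OVA and 4.02 to 8.11 TPM in CTRL, so the ranges of both were above CTRL in the peptide groups, as for Cd36. Itgax and Xcr1 reached at most 7.66 and 3.78 TPM, both in CTRL, and the other 8 at most 0.387 TPM in any library, with C1qa, C1qc and Marco listed at 0. Of 4 platelet markers, Ppbp and Gp9 were listed at 0, Itga2b reached at most 0.371 TPM, and Pf4 reached 0.468 TPM with OVA/Citra and 0.425 TPM with OVA and was listed at 0 in CTRL. The endothelial genes Cdh5 and Kdr reached at most 0.110 and 0.104 TPM. The part of other cell types in the Cd36 levels was not tested.

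Fabp5, a cytosolic fatty acid binding protein, was at 38.1 ± 1.34 TPM with OVA/Citra, 35.4 ± 0.386 TPM with OVA and 53.1 ± 0.944 TPM in CTRL (SD, n = 3 each) and was lower in both peptide groups (OVA -0.57, adjusted p 3.84e-06, OVA/Citra -0.47, adjusted p 2.88e-05).

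**Figure D3:**
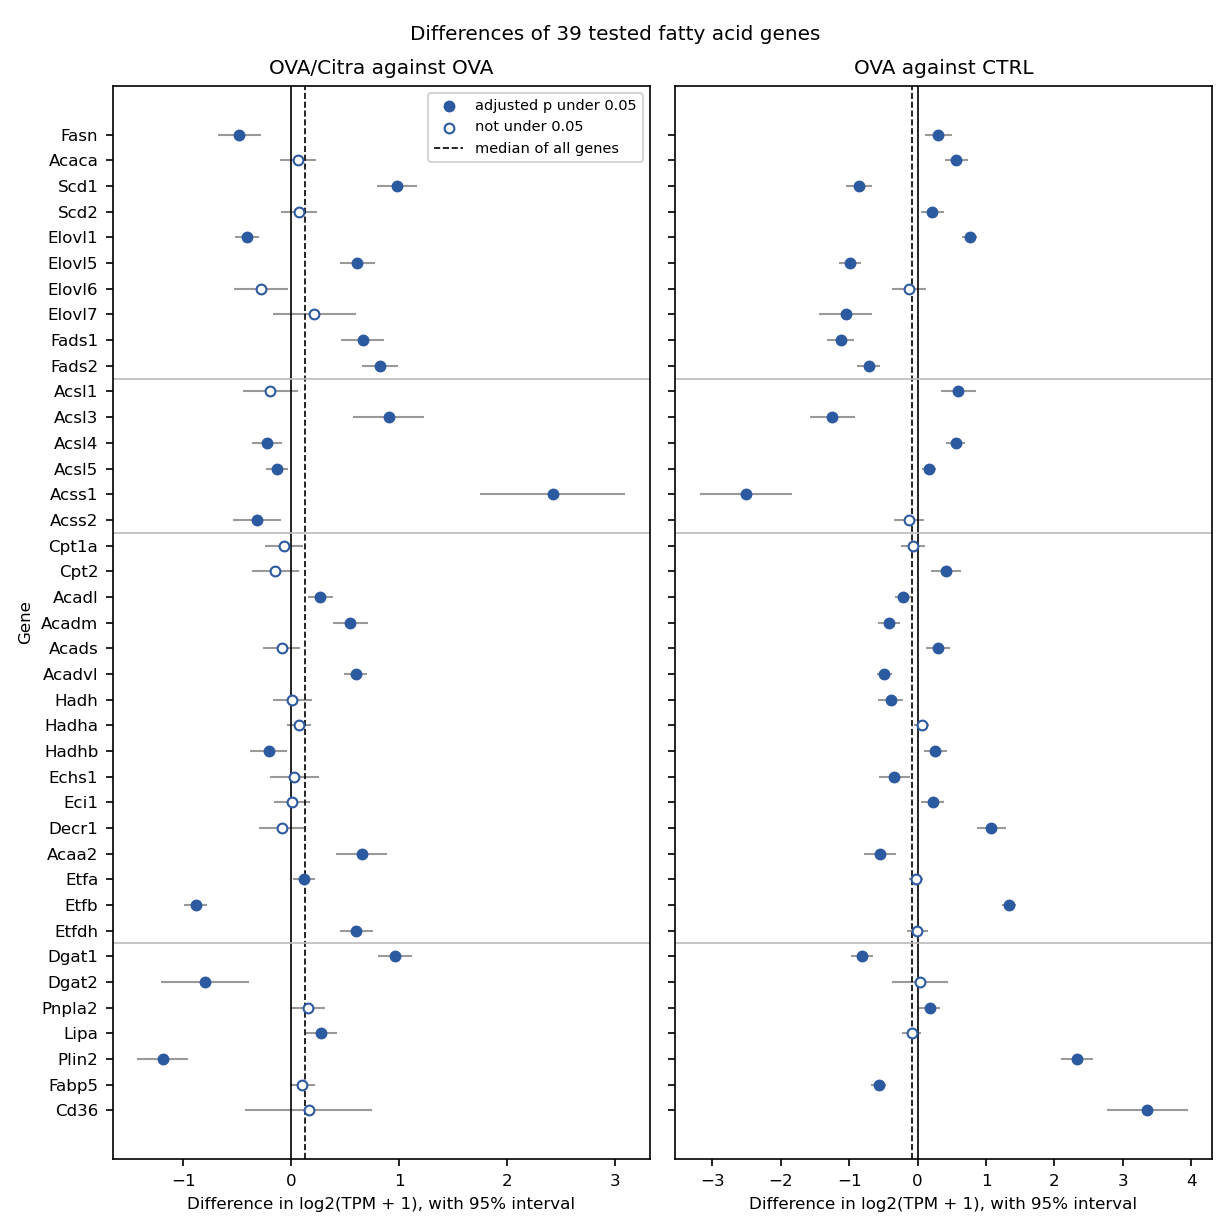
Differences in log2(TPM + 1) of the 39 tested fatty acid genes (horizontal axes) with 95% intervals, for OVA/Citra against OVA on the left and OVA against CTRL on the right, unshifted, with filled points at an adjusted p under 0.05 and a dashed line at the median of all genes. On the left Acss1 lies farthest to the right and Plin2 farthest to the left, and on the right Cd36 and Plin2 lie farthest to the right and Acss1 farthest to the left.

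Read across the 3 groups, OVA lay below both OVA/Citra and CTRL, with adjusted p under 0.05 in each comparison, in Scd1, Elovl5, Fads1, Fads2, Acsl3, Acss1, Acadl, Acadm, Acadvl, Acaa2 and Dgat1. It lay above both in Fasn, Elovl1, Acsl4, Acsl5, Hadhb, Etfb and Plin2. Of these, the Acadl call against CTRL and the Acsl5 and Hadhb calls against OVA/Citra were lost under some alternatives, as given above. The share of all tested genes with either pattern was not counted, so nothing is read from the length of these lists. Both comparisons use the OVA libraries, so that the same genes are called in both is not read as a result, and each comparison's own values stand beside the genes above.

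OVA/Citra lay above both others in Etfdh and Lipa and below both in Acss2 and Dgat2, by 2 comparisons that likewise share the OVA/Citra libraries. The Lipa call against CTRL and the Acss2 call against OVA were lost when certain single libraries were left out, as given above. Against CTRL, the member furthest above was Cd36, followed by Plin2 and Decr1, and the furthest below were Elovl7 and Dgat2. Scd1, Fads2, Acss1, Acadvl and Dgat1, all lower with OVA than in CTRL, gave OVA/Citra against CTRL differences of 0.12, 0.10, -0.095, 0.11 and 0.15, with adjusted p 0.264, 0.259, 0.801, 0.07 and 0.0964. A missed threshold does not show that these levels were equal.

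**Figure D4:**
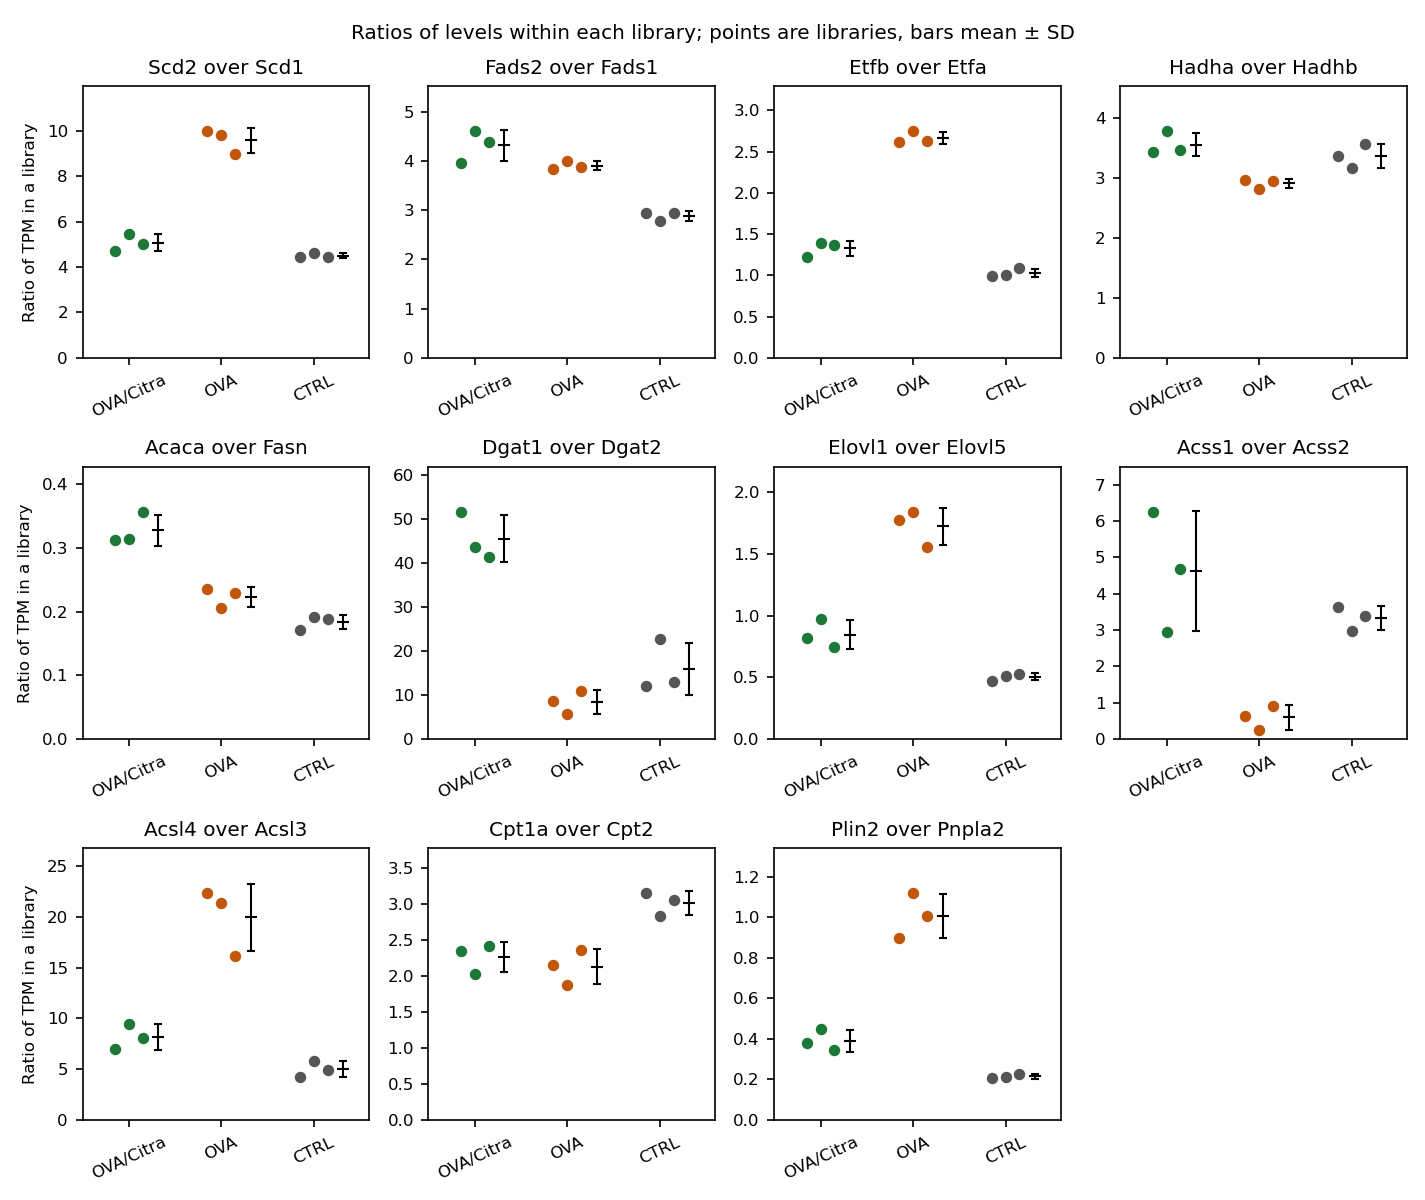
Ratios of TPM between pairs of fatty acid genes within each library (vertical axes, from 0), in OVA/Citra, OVA and CTRL, where points are libraries and bars the mean and SD of 3. All 11 pairs computed are shown: OVA is highest without overlap in Scd2 over Scd1, Etfb over Etfa, Elovl1 over Elovl5, Acsl4 over Acsl3 and Plin2 over Pnpla2, and lowest without overlap in Hadha over Hadhb and Acss1 over Acss2. OVA/Citra is highest without overlap in Acaca over Fasn and Dgat1 over Dgat2, and in Fads2 over Fads1 and Cpt1a over Cpt2 the peptide groups overlap and CTRL stands apart, lowest in the first and highest in the second.

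By role, the calls were spread over all 4 groups. In OVA/Citra against OVA the synthesis, desaturation and elongation genes gave 4 higher, 2 lower and 4 uncalled (4 higher and 3 lower with median-of-ratios scaling), and the activation genes 2, 3 and 1. Import and oxidation gave 6, 2 and 8 (5, 5 and 6 with median-of-ratios scaling), and storage, lipolysis, binding and uptake 2, 2 and 3. In OVA against CTRL the higher, lower and uncalled genes numbered 4, 5 and 1 for synthesis, desaturation and elongation, 3, 2 and 1 for activation, 6, 6 and 4 for import and oxidation, and 3, 2 and 2 for storage, lipolysis, binding and uptake. Over all tested genes 37.8% were called higher and 21.2% lower in OVA/Citra against OVA, and 32.1% and 39.8% in OVA against CTRL. With 6 to 16 tested genes a role, no departure from those shares is read from these counts.

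Summed over a role, the levels differed less between groups than those of many single genes. Synthesis, desaturation and elongation summed to 1249 ± 25.8 TPM with OVA/Citra, 1109 ± 86.2 TPM with OVA and 1154 ± 67.9 TPM in CTRL (SD, n = 3 each), and Scd2 was the largest part of it in each group. Import and oxidation summed to 1021 ± 28.2 TPM with OVA/Citra, 1026 ± 5.39 TPM with OVA and 926 ± 9.36 TPM in CTRL, so both peptide groups lay above CTRL without overlap. Etfb alone averaged 253 TPM with OVA and 99.5 TPM in CTRL, a wider gap than that between the OVA and CTRL sums. Storage, lipolysis, binding and uptake summed to 237 ± 6.91 TPM with OVA/Citra, 249 ± 6.02 TPM with OVA and 195 ± 10.5 TPM in CTRL. Here Plin2 alone averaged 78.2 TPM with OVA and 14.7 TPM in CTRL, again a wider gap than that between the sums. The higher OVA sums therefore do not show that the other genes of these 2 roles rose. Activation summed to 346 ± 11.6 TPM with OVA/Citra, 355 ± 5.33 TPM with OVA and 331 ± 9.96 TPM in CTRL. With 3 libraries a group an exact permutation test of such a sum cannot go below 0.10, so none is given.

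Genes of the same pathways outside the 40 were read from 8 lists. Over all tested genes, 37.8% were called higher and 21.2% lower in OVA/Citra against OVA, and 32.1% and 39.8% in OVA against CTRL. The list counts are given beside these shares and are not read as results. Regulators of lipid genes gave 8 higher, 7 lower and 5 uncalled of 20 tested in OVA/Citra against OVA (6 higher and 8 lower with scaling) and 4, 10 and 6 in OVA against CTRL. Srebf1, the sterol-regulated activator of synthesis and desaturase genes, was at 84.4 ± 2.23 TPM with OVA/Citra, 66.8 ± 3.17 TPM with OVA and 96.0 ± 4.62 TPM in CTRL (SD, n = 3 each), with 0.21 in OVA/Citra against OVA (unshifted 0.33, adjusted p 5.54e-04) and -0.52 in OVA against CTRL (adjusted p 1.45e-05). With median-of-ratios scaling Srebf1 gave 0.20 in OVA/Citra against OVA (adjusted p 0.00815). Nr1h2, the oxysterol receptor LXR beta, averaged 67.8 TPM with OVA/Citra, 48.6 TPM with OVA and 73.5 TPM in CTRL (0.35 in OVA/Citra against OVA, adjusted p 1.62e-04). Its partner Rxrb averaged 55.9 TPM with OVA/Citra, 36.1 TPM with OVA and 55.7 TPM in CTRL (0.49, adjusted p 1.11e-04). Ppara, the fatty acid receptor that drives oxidation genes in liver, was listed at 0 in all 9 libraries.

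Supply of carbon and NADPH gave 3 higher, 4 lower and 6 uncalled of 13 tested in OVA/Citra against OVA and 6, 3 and 4 in OVA against CTRL. Me1, the malic enzyme, averaged 4.96 TPM with OVA/Citra, 17.9 TPM with OVA and 7.89 TPM in CTRL and fell by 1.81 relative to the median in OVA/Citra against OVA (adjusted p 2.54e-04). G6pdx, the first enzyme of the pentose phosphate pathway, averaged 48.8 TPM with OVA/Citra, 74.9 TPM with OVA and 45.7 TPM in CTRL (-0.73, adjusted p 1.26e-04), and Mecr, the reductase of mitochondrial fatty acid synthesis, 17.6 TPM with OVA/Citra, 24.0 TPM with OVA and 12.8 TPM in CTRL (-0.56, adjusted p 0.00113). All 3 rose with OVA against CTRL (1.06, 0.70 and 0.86, adjusted p 0.00291, 1.91e-05 and 5.33e-06).

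Partners of elongation and desaturation gave 4 higher, 2 lower and 4 uncalled of 10 tested in OVA/Citra against OVA (2 higher and 4 lower with scaling) and 6, 3 and 1 in OVA against CTRL. Hsd17b12, the ketoacyl reductase of the elongation cycle, averaged 117 TPM with OVA/Citra, 174 TPM with OVA and 64.0 TPM in CTRL, with -0.70 in OVA/Citra against OVA (adjusted p 2.89e-05) and 1.43 in OVA against CTRL (adjusted p 2.41e-08). Cyb5a, the cytochrome that feeds electrons to desaturases, averaged 71.8 TPM with OVA/Citra, 57.8 TPM with OVA and 113 TPM in CTRL (0.18, adjusted p 4.84e-04, and -0.95, adjusted p 1.34e-07), and its reductase Cyb5r3 averaged 42.4 TPM with OVA/Citra, 32.8 TPM with OVA and 41.7 TPM in CTRL (0.24, adjusted p 4.53e-04).

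Uptake, binding and activation partners gave 6 higher, 5 lower and 4 uncalled of 15 tested in OVA/Citra against OVA (3 higher and 5 lower with scaling) and 5, 5 and 5 in OVA against CTRL. Vldlr, a lipoprotein receptor, was at 3.14, 1.99 and 2.10 TPM in OVA/Citra libraries, 0.0913, 0.233 and 0.244 TPM in OVA libraries and 7.07, 6.13 and 5.46 TPM in CTRL libraries, separate in all 3 groups (1.38 in OVA/Citra against OVA, adjusted p 3.56e-05, unshifted 3.14 with a pseudocount of 0.1 TPM). Lrp8, a related receptor, averaged 3.32 TPM with OVA/Citra, 8.47 TPM with OVA and 7.61 TPM in CTRL (-1.25, adjusted p 3.81e-05), and the acyl-CoA synthetase Acsbg1 averaged 14.4 TPM with OVA/Citra, 25.6 TPM with OVA and 28.9 TPM in CTRL (-0.91, adjusted p 8.99e-05). The carnitine shuttle beyond Cpt1a and Cpt2 gave 1 lower and 3 uncalled of 4 tested in OVA/Citra against OVA, and 2, 1 and 1 in OVA against CTRL. The lower gene was Crot, the peroxisomal carnitine octanoyltransferase, which averaged 11.4 TPM with OVA/Citra, 16.7 TPM with OVA and 14.5 TPM in CTRL (-0.64, adjusted p 8.49e-04).

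Partners of mitochondrial oxidation gave 7 higher, 5 lower and 11 uncalled of 23 tested in OVA/Citra against OVA (5 higher and 7 lower with scaling) and 11, 5 and 7 in OVA against CTRL. Hsd17b10, a dehydrogenase of isoleucine and branched-chain fatty acid breakdown, averaged 148 TPM with OVA/Citra, 291 TPM with OVA and 90.0 TPM in CTRL, with -1.09 in OVA/Citra against OVA (adjusted p 2.89e-05) and 1.68 in OVA against CTRL (adjusted p 2.12e-07). Bdh1, which interconverts the ketone bodies, averaged 31.4 TPM with OVA/Citra, 12.9 TPM with OVA and 34.9 TPM in CTRL (1.13, adjusted p 1.53e-04, and -1.40, adjusted p 3.15e-05). The mitochondrial thioesterase Acot9 averaged 109 TPM with OVA/Citra, 72.3 TPM with OVA and 40.1 TPM in CTRL and was highest with OVA/Citra (0.47, adjusted p 7.40e-05, and 1.43 against CTRL, adjusted p 1.50e-07).

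Peroxisomal oxidation gave 10 higher, 1 lower and 8 uncalled of 19 tested in OVA/Citra against OVA, or 7 higher and 3 lower with scaling, and 5, 10 and 4 in OVA against CTRL. Its median unshifted difference was 0.30 in OVA/Citra against OVA, where that of all genes was 0.12, and -0.28 in OVA against CTRL, where that of all genes was -0.078. In OVA/Citra against OVA this was the largest median of the 8 lists, the others running from -0.048 to 0.14. In OVA against CTRL the regulators had a lower one, -0.32. A list singled out by its values is not read as a result. Scp2, the sterol carrier and thiolase, averaged 79.8 TPM with OVA/Citra, 55.2 TPM with OVA and 102 TPM in CTRL (0.40, adjusted p 3.65e-05, and -0.87, adjusted p 3.52e-07). Decr2, the peroxisomal counterpart of Decr1, averaged 24.8 TPM with OVA/Citra, 16.3 TPM with OVA and 19.95 TPM in CTRL (0.45, adjusted p 1.76e-04). The lower gene was Pecr, the peroxisomal enoyl-CoA reductase, which averaged 4.19 TPM with OVA/Citra, 11.9 TPM with OVA and 7.26 TPM in CTRL (-1.45, adjusted p 6.85e-05).

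Triglyceride, droplet and lipolysis partners gave 8 higher, 5 lower and 7 uncalled of 20 tested in OVA/Citra against OVA (7 and 7 with scaling) and 9, 5 and 6 in OVA against CTRL. Hilpda, a small droplet protein that inhibits Pnpla2, was at 30.8, 35.6 and 26.9 TPM in OVA/Citra libraries, 72.2, 102 and 71.8 TPM in OVA libraries and 27.6, 25.6 and 26.4 TPM in CTRL libraries. OVA was highest without overlap, as for Plin2, with -1.48 in OVA/Citra against OVA (adjusted p 3.28e-05) and 1.57 in OVA against CTRL (adjusted p 3.37e-06). Abhd5, the activator of Pnpla2, chosen after its values were seen, averaged 10.4 TPM with OVA/Citra, 16.8 TPM with OVA and 5.52 TPM in CTRL (-0.78, adjusted p 4.03e-04, and 1.45, adjusted p 8.42e-07). The acyltransferases Agpat4 and Agpat3 differed in direction. Agpat4 averaged 29.0 TPM with OVA/Citra, 56.6 TPM with OVA and 20.4 TPM in CTRL (-1.07, adjusted p 2.50e-05), and Agpat3 averaged 34.6 TPM with OVA/Citra, 21.0 TPM with OVA and 33.3 TPM in CTRL (0.57, adjusted p 2.77e-05).

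RefSeq promoter windows were found for 32 of the 40 genes. The CCAAT box was in the windows of 16 of these (50.0%), where 37.4% of 32851 windows over the genome held it, and the E-box was in 2 (6.25%, genome 7.15%). The sterol response element as spelled above was in 1, a second window of Acsl1 (3.12%, genome 1.24%). The member shares count genes with a match in any window, while the genome shares count windows, so they are not like for like. Elovl1 and Acsl1 had a second window each, and Acsl1 held its matches only there. Of the 2 genes with an E-box, Elovl5 was lowest and Plin2 highest with OVA. Windows without a match say only that these letters are not in these 300 bases.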

How the data were processed

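The authors deposited 1 table of TPM for the 9 libraries, with genes named by symbol. The name of the table says FPKM, yet every column adds up to 1000000, which fits TPM. The GRCm39 mouse build, Salmon and Trim Galore 0.5.0 are named per the submitters' processing notes, which name no annotation. The 40 genes, the pathway and marker lists and the tests were chosen with earlier results of these data known, and the lists were written from general knowledge.

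Values were converted to log2(TPM + 1), a pseudocount of 1 TPM. The 11971 genes whose mean reached 1 TPM in some group were fitted over all 9 libraries with limma 3.58.1 in R 4.3.3 (lmFit, eBayes with a trend), and two-sided p-values were adjusted by Benjamini-Hochberg over all tested genes of each comparison, with calls at an adjusted p of 0.05. Means are given ± SD over 3 libraries. Values by library were given for the 15 members that passed the test with a 1.5-fold difference in OVA/Citra against OVA or OVA against CTRL and had a group mean of 5 TPM. For each pathway list, up to 3 genes with a group mean of 5 TPM and the smallest adjusted p in OVA/Citra against OVA were named.

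Low TPM values were whole multiples of 1 read, and reads were recovered for all 16734 genes above 0 in at least 2 libraries (100%, within 0.02 reads). These reads gave the depth and 1 alternative fit with voom. The limma fit was tested on simulated data. Alternatives changed the pseudocount, the filter, the scaling, the variance model, the granzyme genes in the total, the groups fitted and the libraries kept. Reads of near-identical genes may be divided between copies. The promoters of 8 members (Scd1, Scd2, Fads1, Decr1, Acaa2, Dgat1, Dgat2 and Fabp5) were not used here.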

Additional observations from a re-analysis of the deposited data

How the results depend on the processing

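The 19 alternatives were each fitted over all genes. Counts of members called in OVA/Citra against OVA ranged from 13 to 14 higher and 6 to 13 lower, in OVA against CTRL from 13 to 17 and 14 to 16, and in OVA/Citra against CTRL from 11 to 19 and 8 to 12. In OVA/Citra against OVA, 13 of 14 higher and 6 of 9 lower calls were kept under every alternative, in OVA against CTRL 13 of 16 and 14 of 15, and in OVA/Citra against CTRL 11 of 15 and 8 of 9. Etfa in OVA/Citra against OVA was -0.019 (adjusted p 0.745) with median-of-ratios scaling, against 0.11 without it. That scaling, with 13 lower members, also called Acads, Cpt1a, Cpt2 and Elovl6 lower in OVA/Citra against OVA, and Hadha higher in OVA against CTRL. Acadl in OVA against CTRL was lost when granzyme genes were left out of the total (-0.098, adjusted p 0.0991). Leaving out OVA replicate 2 and OVA/Citra replicate 2 together, chosen after seeing the data, gave 13 higher and 7 lower in OVA/Citra against OVA. Whether replicate numbers pair the libraries is not given by the labels. Deviations of same-numbered libraries correlated at -0.012 to 0.304, OVA/Citra replicates 2 and 3 correlated best with the OVA library of their own number (0.304 and 0.143), and OVA/Citra replicate 1 with OVA replicate 3 (0.168). With the replicate block, 7004, 8578 and 7128 genes were called in the 3 comparisons, and 13 and 9, 16 and 15, and 15 and 9 members, higher and lower. Genes of few reads (Elovl7, Dgat2, Acacb and Cd36 in CTRL) are limited by depth, and their log2 differences depend on the pseudocount.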
